A study of Mus musculus with 2 samples.

Results

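The keratins of the mouse are the intermediate filament proteins of epithelial cells. Members were taken as all protein-coding genes of the GENCODE M21 annotation whose symbol is Krt, a number and an optional letter, matched by gene identifier in the values of both libraries. The rule gave 53 genes of 43346 measured, 21474 of them protein-coding, and all 53 were matched. Of these, 25 were type II and 28 were type I. Krt74, which the annotation classes as a pseudogene, fell outside the rule and had 3 counts in replicate 1 and 1 count in replicate 2.

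A keratin filament is built from heterodimers of a type I chain, which is acidic, and a type II chain, which is neutral to basic, so an epithelial cell expresses keratins of both types. Which members it expresses depends on the kind of epithelium: Krt8 and Krt18 in simple epithelium, Krt5 and Krt14 in the basal layer of stratified epithelium, Krt1 and Krt10 in its cornifying layers, Krt4 and Krt13 in the suprabasal layers of mucosa such as the oesophagus, and a large set in hair. In the thymus the epithelial cells form the stroma in which T cells develop. Krt8 and Krt18 are the usual markers of its cortical epithelium and Krt5 and Krt14 of its medullary epithelium.

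The tissue was the whole thymus of newborn mice with no labelled treatment (B6NCrl strain, postnatal day 0), with both lobes of a pup pooled, so epithelial and other cells were mixed. The only group held 2 libraries of total RNA, replicate 1 from pup 2 and replicate 2 from pup 3 of 1 pregnant female, although the labels give both pups the same donor identifier. Spike-in RNA was added, and 10 ng of RNA entered each library, with 39046411 expected counts obtained in replicate 1 and 41576822 in replicate 2. Expected counts are read counts estimated per gene, and TPM, a unit of relative transcript abundance, are the same estimates per transcript length, scaled to the same total in every library. Markers of the labelled tissue were present: 6 of 6 thymocyte genes, 8 of 8 genes of cortical thymic epithelium and 9 of 9 of medullary thymic epithelium reached 1 TPM in both libraries.

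The 53 genes lie in 2 clusters, given here with GRCm38 coordinates (the mm10 build). The chromosome 11 cluster spans 1037.1 kb, chr11:99232761-100269871, and holds 27 type I genes, all 27 on the minus strand. The chromosome 15 cluster spans 684.6 kb, chr15:101347444-102032027, and holds the 25 type II genes together with Krt18, a type I gene at its end. Krt8 and Krt18 are neighbours there on opposite strands, and their annotated 5′ ends are 23698 bp apart. They are a type II and a type I gene, and they had the highest levels of the family.

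Many keratins are close copies of each other, which limits how far their reads can be told apart. Exact 100-nt windows were compared over all annotated transcripts, a length taken because the deposited effective lengths were 99 nt shorter than the transcripts. No window was shared with another gene for 30 of the 53 keratins, among them Krt4, Krt13, Krt15, Krt17, Krt18 and Krt19. The other 23 shared some, and 10 shared over 10% of their windows. The highest shares among the keratins at 1 TPM or more were in Krt6a, with 42.9% of windows shared, Krt16 with 24.3% and Krt8 with 17.1%. Krt8 shared its windows with Krt8-ps and Gm36026, which were not analysed here. Gm11597, a pseudogene copy that shares windows with Krt16, had 0 counts in both libraries.

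Krt6a and Krt6b, keratins of wounded skin and of appendages, lie 9622 bp apart and had the longest shared coding run of the 8 keratin pairs compared. The sequence below is the longest coding run that they share base for base, 280 nt at coding bases 34 to 313 of Krt6a (chr15:101693936-101694215, minus strand, exonic). It is shown because a read that lies wholly inside it cannot be told to come from either gene, and it is printed without capitals since no base differs.
Krt6a and Krt6b: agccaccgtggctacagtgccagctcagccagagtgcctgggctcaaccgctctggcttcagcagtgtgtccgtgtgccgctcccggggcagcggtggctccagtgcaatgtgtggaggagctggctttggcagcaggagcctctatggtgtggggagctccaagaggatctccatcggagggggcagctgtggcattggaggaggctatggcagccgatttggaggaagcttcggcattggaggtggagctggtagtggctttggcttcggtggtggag

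Krt17, the most abundant keratin of chromosome 11 in these libraries, has Krt14 and Krt16 as its near relatives in the same cluster. The next 4 sequences are an aligned 90-nt coding window from the end of the rod domain region, in which capitals mark the bases that differ from Krt17. The window lies at chr11:100257333-100257509 in Krt17, chr11:100204008-100204184 in Krt14, chr11:100246503-100246686 in Krt16 and chr15:102031440-102031850 in Krt18, and crosses an intron in each gene. All but Krt18 are on the minus strand.
Krt17: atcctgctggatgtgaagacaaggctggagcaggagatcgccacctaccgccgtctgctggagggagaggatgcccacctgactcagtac
Krt14: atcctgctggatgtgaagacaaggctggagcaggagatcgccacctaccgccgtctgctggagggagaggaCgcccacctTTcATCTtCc
Krt16: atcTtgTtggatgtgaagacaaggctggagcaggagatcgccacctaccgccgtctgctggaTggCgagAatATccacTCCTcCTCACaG
Krt18: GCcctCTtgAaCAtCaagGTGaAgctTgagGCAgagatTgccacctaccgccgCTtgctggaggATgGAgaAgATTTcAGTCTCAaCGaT
Krt14 differed from Krt17 at 8 bases of the window, Krt16 at 17 and Krt18 at 38. The longest identical coding run of Krt17 and Krt14 was 71 nt, shorter than the 100-nt windows, of which Krt17 shared none.

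Most keratin genes were below 1 TPM in the newborn thymus, although 40 of the 53 had a mean count of at least 10. At least 1 TPM in both libraries was reached by 15 of the 53 keratins (28.3%), against 57.3% of all protein-coding genes. The median keratin had 0.460 TPM and the median protein-coding gene 2.87 TPM, as means of both libraries. A further 3 keratins, Krt4, Krt13 and Krt83, passed 1 TPM in replicate 1 alone. The other 35 ranged from 0 to 0.780 TPM, and together they had 10.3 TPM in replicate 1 against 9.69 TPM in replicate 2. Around the threshold, the lowest mean of a detected keratin was 1.29 TPM (Krt71) and the highest mean of a keratin under 1 TPM in both libraries was 0.720 TPM (Krt6b). Krt26, an inner root sheath keratin of hair, had 0 counts in both libraries, and a count of 0 allows up to 3 counts.

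**Figure D1:**
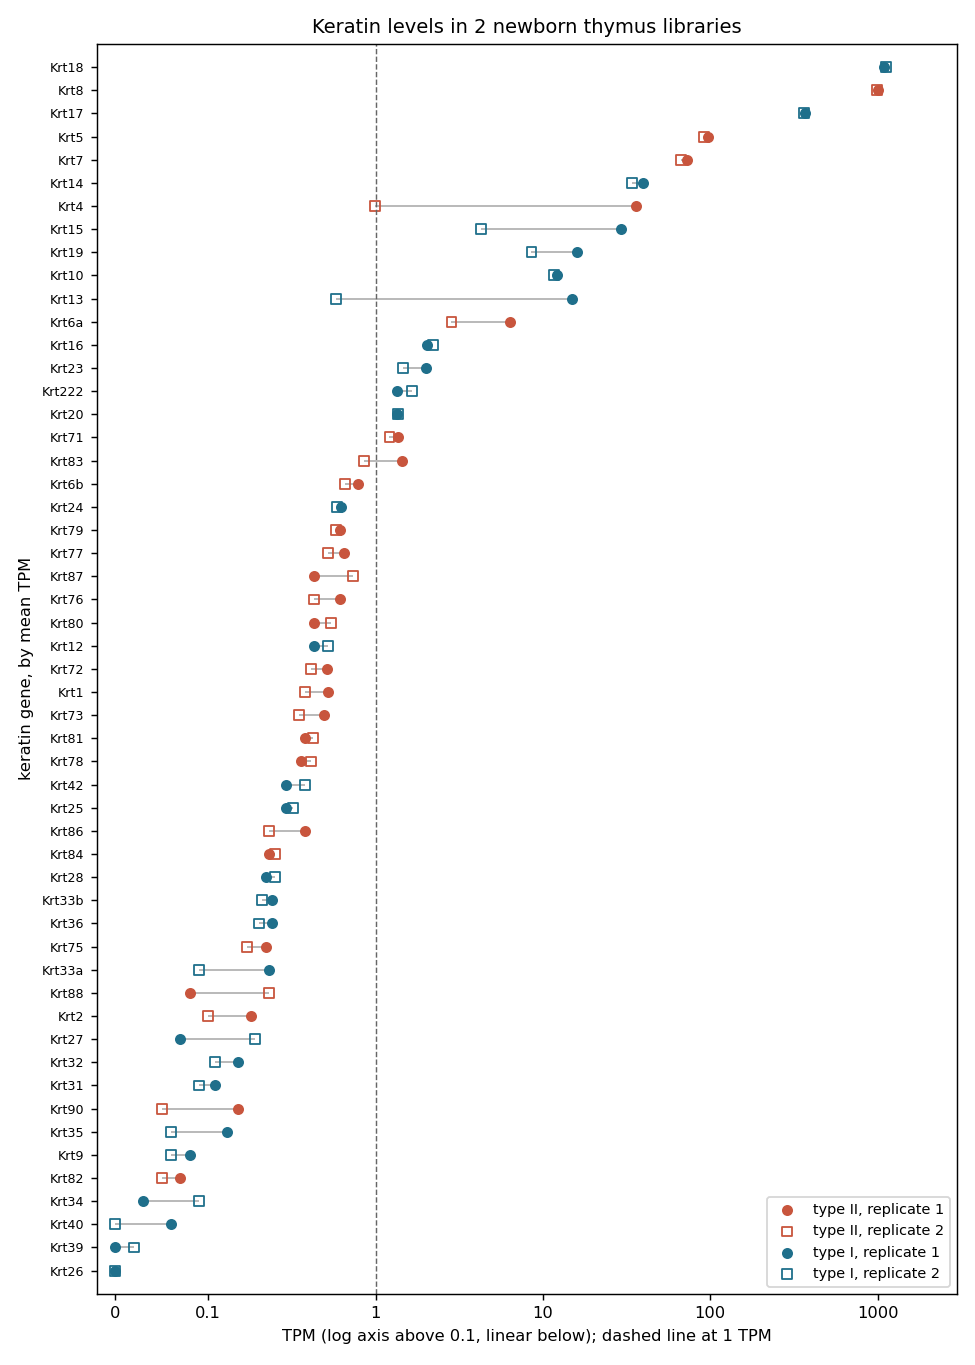
TPM of each of the 53 keratins (rows, sorted by mean level) on an axis that is logarithmic above 0.1 TPM, with filled circles for replicate 1, open squares for replicate 2, a line joining both, and colours for type II and type I. Krt18, Krt8 and Krt17 stand at 361 TPM or more in both libraries, 35 keratins stay left of the dashed line at 1 TPM, and the longest joining lines among the expressed keratins are those of Krt4, Krt13 and Krt15.

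The whole family held 2804 TPM in replicate 1 and 2726 TPM in replicate 2, which is 0.280% and 0.273% of all TPM. A few members made up nearly all of it. Krt8 and Krt18 together held 74.6% of the family in replicate 1 and 78.0% in replicate 2, and with Krt17 the share was 87.8% and 91.2%. The 18 keratins at 1 TPM or more in either library held 99.6% of the family TPM in each library.

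Krt18, the type I keratin of simple epithelium, had 1084 TPM in replicate 1 against 1128 TPM in replicate 2, from 41606 and 46684 expected counts. Krt8, its type II partner, had 1006 TPM and 997 TPM, from 50620 and 54131 counts. Among all measured genes Krt18 ranked 112 in replicate 1 and 113 in replicate 2, and Krt8 ranked 123 and 138. The third keratin in order of level was Krt17, a type I keratin best known from injured and appendage epithelium, with 370.2 TPM in replicate 1 and 361 TPM in replicate 2. These 3 genes differed little between the pups: the ratio of replicate 1 over replicate 2 was 0.932 for Krt18, 0.978 for Krt8 and 0.994 for Krt17 on expected counts scaled for library composition.

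Lower by a wide margin came the other simple and basal keratins. Krt5, the type II keratin of basal layers, had 96.3 TPM in replicate 1 against 91.3 TPM in replicate 2, and Krt14, its type I partner, had 39.6 TPM and 34.0 TPM. Krt7, a type II keratin of ducts and other simple epithelia, had 72.8 TPM and 66.9 TPM. Levels of these 3 genes were close between the pups, unlike those of Krt15 and Krt19 in the same range. Krt15, a type I keratin of basal cells, had 29.2 TPM in replicate 1 against 4.28 TPM in replicate 2, and Krt19, a type I keratin of simple epithelia and of progenitor cells, had 16.0 TPM and 8.54 TPM. The type I keratin of cornifying layers, Krt10, was at 12.2 TPM and 11.6 TPM, between the values of Krt19 in the pups.

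The keratins that remain at 1 TPM or more in either library were near the threshold, apart from Krt4 and Krt13. Krt6a had 6.38 TPM in replicate 1 against 2.84 TPM in replicate 2, and its type I partner Krt16 had 2.04 TPM and 2.20 TPM. Krt23 was at 1.99 TPM and 1.46 TPM, and Krt222, a gene of keratin-like sequence at the end of the chromosome 11 cluster, at 1.34 TPM and 1.65 TPM. Krt20, known from intestinal and urothelial surface cells, had 1.34 TPM in replicate 1 against 1.36 TPM in replicate 2. Krt71, an inner root sheath keratin, had 1.37 TPM and 1.21 TPM, and Krt83, a hair shaft keratin, had 1.43 TPM and 0.850 TPM and so missed detection in replicate 2. The order of the genes near the threshold by level is not resolved, since the ranges of Krt20, Krt71 and Krt222 overlapped.

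Grouped by the textbook site of expression, the simple epithelial keratins led. All 5 of them (Krt7, Krt8, Krt18, Krt19 and Krt20) were detected, and their sum was 2191 ± 14.8 TPM (SD, n = 2). The keratins of injury and appendages had 3 of 5 members detected and a sum of 373 ± 8.94 TPM, nearly all of it Krt17. The 3 basal keratins of stratified epithelium, Krt5, Krt14 and Krt15, were all detected and summed to 165 TPM in replicate 1 and 129.6 TPM in replicate 2. Among the cornifying keratins 1 of 5 was detected, Krt10, and the group summed to 13.6 TPM and 12.7 TPM.

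The hair groups were at the low end. None of the 15 hair shaft keratins reached 1 TPM in both libraries, and their sum was 4.11 TPM in replicate 1 and 3.40 TPM in replicate 2. Of the 7 inner root sheath keratins only Krt71 was detected, with group sums of 2.95 TPM and 2.73 TPM. The mucosal suprabasal keratins Krt4, Krt13 and Krt76 had no member detected in both libraries, and they were the group whose sum moved most, 51.3 TPM in replicate 1 and 2.00 TPM in replicate 2. A lower sum in a bulk library can mean fewer cells of a type or less RNA per cell, and these cannot be told apart here.

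**Figure D2:**
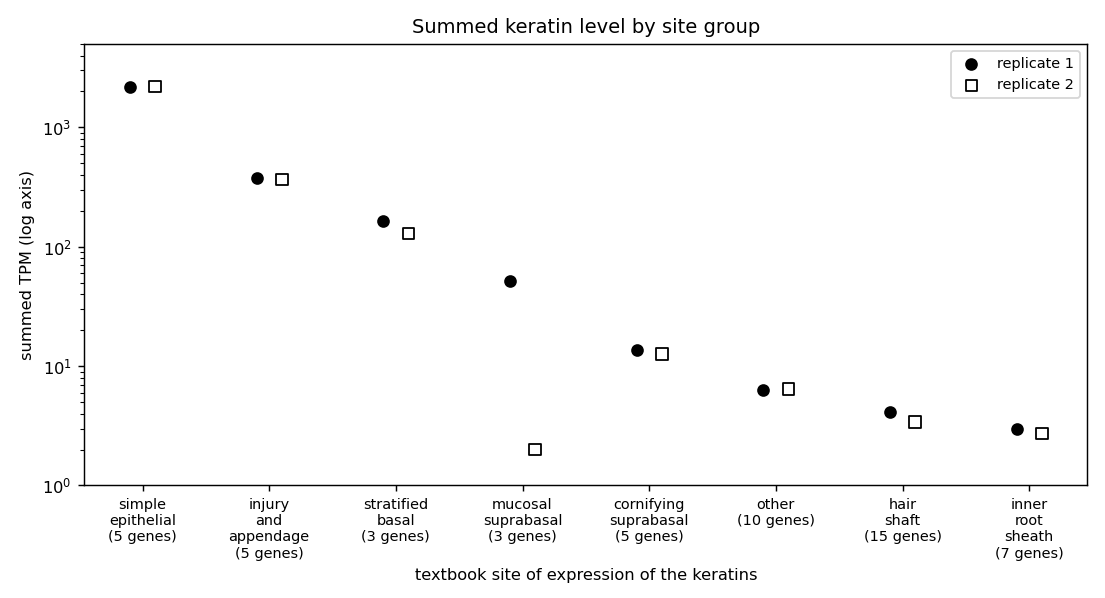
Summed TPM (logarithmic axis) of the keratins of each textbook site of expression, with the number of genes in each group; filled circles are replicate 1 and open squares replicate 2. The symbols nearly coincide for most groups, whereas the mucosal suprabasal group stands at 51.3 TPM in replicate 1 and 2.00 TPM in replicate 2.

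Type II and type I chains were compared by their summed TPM, because they enter filaments as partners. Type II genes summed to 1227 TPM and type I genes to 1577 TPM in replicate 1, and to 1168 TPM and 1558 TPM in replicate 2. The ratio of type II over type I was 0.778 in replicate 1 and 0.750 in replicate 2 (mean 0.764 ± 0.0203, SD, n = 2). No type II gene was at a level like that of Krt17, and which chains pair was not measured. Without Krt17 the ratio was 0.997 ± 0.0293, an omission chosen after seeing the data. With Krt8 and Krt18 left out instead, the ratio was 0.423 ± 0.0371, and without all 3 of these genes, also chosen after seeing the data, it turned to 2.15 ± 0.469. On expected counts of all members it was 1.01 ± 0.0298, so the type I excess was present per transcript length and not in counts. Grouping by chromosome, which moves Krt18 to the side of the type II genes, gave a ratio of chromosome 15 over chromosome 11 of 5.02 ± 0.453.

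Individual textbook pairs differed in how evenly they were filled. Krt8 over Krt18 was closest to equal, with a TPM ratio of 0.928 in replicate 1 and 0.884 in replicate 2, although on expected counts the ratio was 1.22 and 1.16 and the direction turned. Krt5 was above Krt14, with ratios of 2.43 and 2.69, and Krt7 was above Krt19, with 4.56 and 7.83. In the cornifying pair the type II member was nearly lacking: Krt1 had 0.520 TPM and 0.380 TPM, and Krt1 over Krt10 was 0.0427 in replicate 1 and 0.0327 in replicate 2. Krt4 over Krt13 was 2.39 in replicate 1 and 1.71 in replicate 2, although both genes differed many-fold between the pups. Krt6a over Krt16 was 3.13 and 1.29, and Krt6b over Krt17 was 0.00211 and 0.00183, so the levels of Krt6b and Krt17 were the least matched of the 7 pairs.

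**Figure D3:**
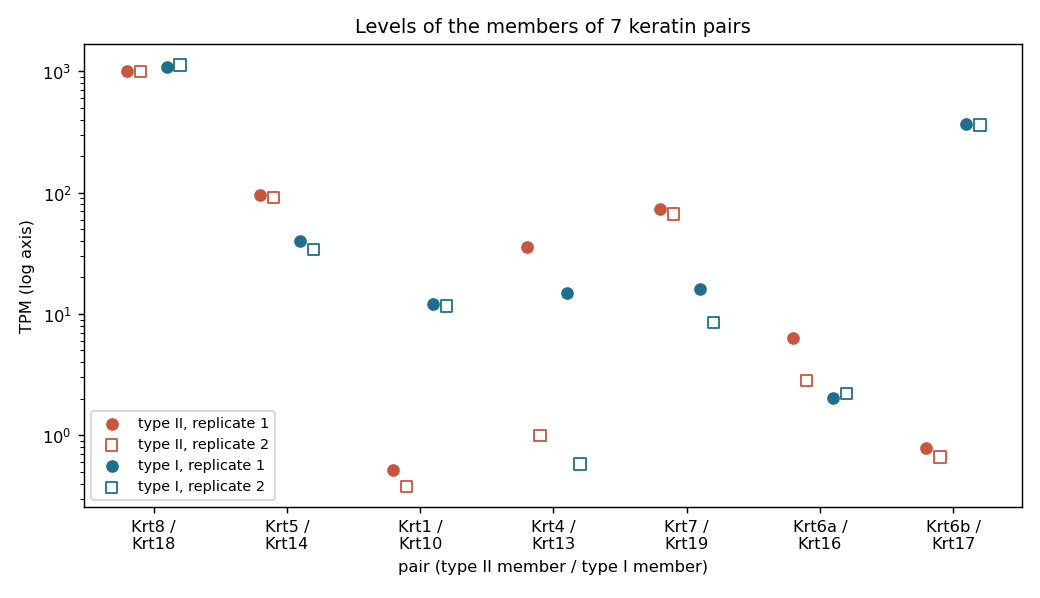
TPM (logarithmic axis) of the type II member and the type I member of 7 textbook keratin pairs, with filled circles for replicate 1 and open squares for replicate 2. The symbols of Krt8 and Krt18 lie together, between 997 and 1128 TPM, those of Krt4 and Krt13 are each far lower in replicate 2 than in replicate 1, and Krt17 lies far above Krt6b.

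The pair ratios rest in part on how the authors' estimate split a gene over its transcripts. A single transcript was listed for 38 keratins and several for 15. For Krt14, a processed transcript of 1122 nt took 65.4% of the gene's TPM in replicate 1 and 57.6% in replicate 2, while the protein-coding transcript of 1698 nt had 13.7 TPM and 14.4 TPM. For Krt7, a protein-coding transcript of 642 nt took 44.0% ± 1.42 of the TPM (SD, n = 2) from 9.58% and 10.2% of the counts. A processed transcript of 823 nt took 42.2% ± 1.40 of the TPM of Krt19. A short transcript thus weighs more in TPM than in counts. The ratios from expected counts were 4.29 for Krt5 over Krt14 and 12.9 for Krt7 over Krt19, as means of both libraries. Expected counts are not divided by length, so these ratios also carry the lengths of the transcripts. The transcript with the most TPM had 4094 nt for Krt7 and 1576 nt for Krt19. The parts of length and of the split in the count ratios were not separated.

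The libraries of the pups were compared by the ratio of replicate 1 over replicate 2 of expected counts, scaled with edgeR's TMM factors. With 1 library per pup this compares libraries, has no replicate check and gives no p-value, and the 95% exact binomial intervals of the folds cover counting error only. At a mean count of at least 50, 18 keratins could be compared. Of these, 4 (22.2%) were over 2-fold, all 4 higher in replicate 1, whereas 1.35% of the 14155 genes at this minimum were over 2-fold in either direction. Over all genes, 1.15% were more than 2-fold higher in replicate 1, against 0.198% in replicate 2, and among protein-coding genes 0.404% were over 2-fold higher in replicate 1. The median log2 ratio was 0.11 for the 18 keratins and -0.02 for all genes.

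Krt13, the type I keratin of mucosal suprabasal layers, had 686 expected counts in replicate 1 and 17 in replicate 2. The log2 ratio was 5.36, a 41.0-fold difference (95% interval 26.2 to 72.9). Its TPM, 14.96 in replicate 1 and 0.580 in replicate 2, gave a ratio of 25.8, since 43.7% of the TPM in replicate 2 was assigned to a retained-intron transcript of 207 nt from 0.870 counts. Krt4, its type II partner, had 2144 counts in replicate 1 and 64 in replicate 2, a log2 ratio of 5.12 or 34.8-fold (27.3 to 45.7), and a TPM ratio of 36.1. The intervals of Krt13 and Krt4 overlap, and their order turns between counts and TPM. Krt15 had 1380 and 218 counts, a log2 ratio of 2.72 or 6.61-fold (5.73 to 7.67). The same direction held for these 3 genes, which are named because they passed 2-fold. It was not a trait of their site groups as wholes. The other basal keratins, Krt5 and Krt14, had folds of 1.02 and 1.09. The other mucosal keratin, Krt76, had a fold of 1.39 (0.847 to 2.32) from 40 and 30 counts.

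Krt6a was the fourth, with 406 counts in replicate 1 and 195 in replicate 2, a log2 ratio of 1.12 or 2.17-fold (1.83 to 2.60). Because Krt6a shares many windows with Krt6b, their counts were also summed, a choice made after seeing the data, and the sum had 454 counts in replicate 1 and 240.0 in replicate 2, a log2 ratio of 0.99 that is under 2-fold. Scaling by spike-ins also took Krt6a under 2-fold, to a log2 ratio of 0.43, and left Krt4, Krt13 and Krt15 over it. That scaling put 3 of the 18 keratins over 2-fold higher in replicate 1, against 0.212% of all genes, and 1, Krt222, over 2-fold lower, against 6.90% of all genes. Krt19 was under the threshold, with 543 and 317 counts and a 1.79-fold difference (1.56 to 2.06). The other 13 lay closer together, and 11 of the 18 keratins were within 1.2-fold. Such closeness was common: of all 14155 genes at this minimum, 6123 had a log2 ratio from -0.25 to 0 and 4507 from 0 to 0.25. The median absolute log2 ratio was 0.145 for the 18 keratins and 0.133 for all these genes. Of the 35 keratins under a mean count of 50, the interval held 1 for 34. The exception was Krt87, a hair shaft keratin, with 22 counts in replicate 1 and 40.2 in replicate 2. Its interval of the fold, 0.326 to 0.991, ended just below 1. How often the interval missed 1 among all genes under a mean count of 50 was not counted. With 35 intervals looked at, 1 such miss does not set Krt87 apart. The TPM intervals that the authors deposited, whose level is not stated, did not overlap between the libraries for 8 of the 53 keratins, against 9.65% of all genes. All 8 were among the 18 keratins at 50 counts or more, and 27.4% of the genes at this minimum had such intervals.

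**Figure D4:**
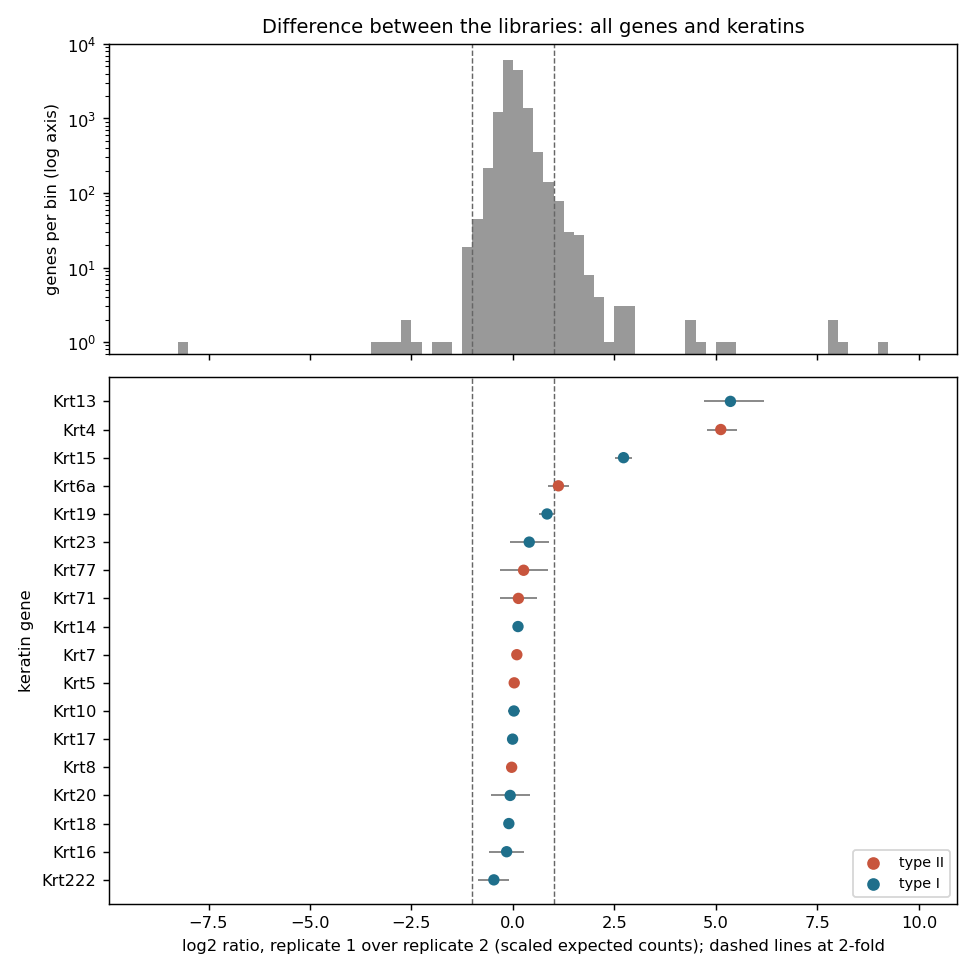
Upper panel: number of genes (logarithmic axis) by log2 ratio of replicate 1 over replicate 2 for the 14155 genes at a mean count of at least 50. Lower panel: the same ratio for the 18 keratins at this minimum, with 95% exact binomial intervals of the counts as lines; Krt13, Krt4, Krt15 and Krt6a lie right of the 2-fold line and no keratin lies left of the opposite line.

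Position in the cluster was set beside these ratios. Krt13, Krt15 and Krt19 are consecutive on chromosome 11, with 10191 bp between Krt13 and Krt15 and 4881 bp between Krt15 and Krt19, and their log2 ratios were 5.36, 2.72 and 0.84. The next genes on either side, Krt36 with 0.240 TPM in replicate 1 and 0.200 in replicate 2, and Krt9 with 0.0800 and 0.0600, were close to 0 in both libraries. On chromosome 15, Krt4 lies between Krt76 and Krt79, whose log2 ratios of 0.47 and 0.02 rest on under 50 counts. The abundant genes Krt17 and Krt14 stood near low ones as well, with Krt42, 1852 bp from Krt17, at 0.290 TPM in replicate 1 and 0.380 TPM in replicate 2.

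**Figure D5:**
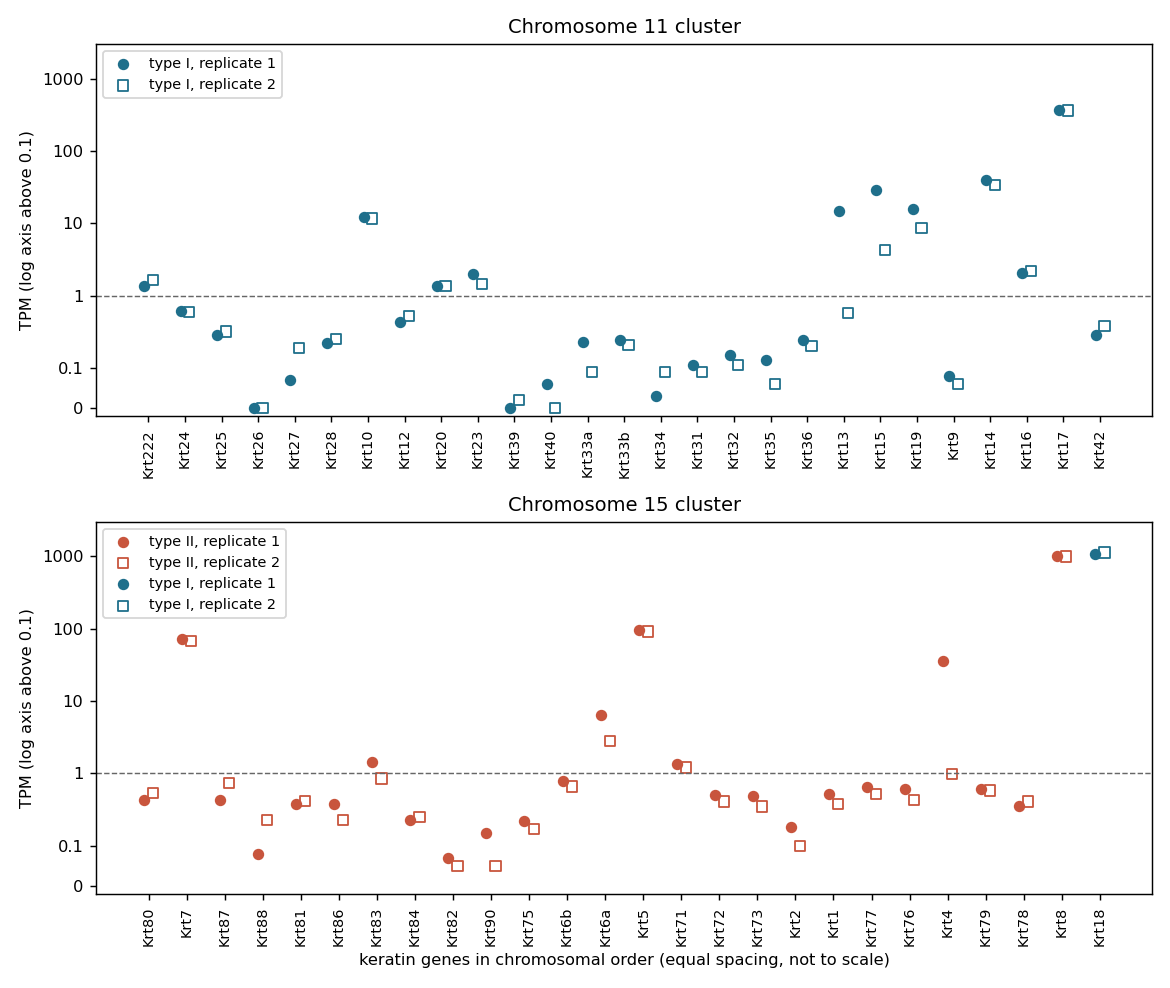
TPM (axis logarithmic above 0.1) of the keratins in chromosomal order, with equal spacing that is not to scale, for the chromosome 11 cluster above and the chromosome 15 cluster below; filled circles are replicate 1 and open squares replicate 2. High and low genes lie side by side in both clusters, and the circles stand well above the squares at Krt13 and Krt15 on chromosome 11 and at Krt4 on chromosome 15.

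Markers of other tissues were measured beside the keratins that differed. Of 6 adipose genes 1 was detected in both libraries, and the list summed to 28.1 TPM in replicate 1 and 2.06 TPM in replicate 2, with 2 of the 2 genes above 50 counts, Car3 and Adipoq, over 2-fold higher in replicate 1. Of 10 airway genes 7 were detected, with sums of 287 TPM and 239 TPM. Most of these sums was Bpifa1, at 174.5 TPM in replicate 1 and 153.5 TPM in replicate 2, and Reg3g, at 85.7 TPM and 65.9 TPM. Nkx2-1, Sftpc and Muc5b were under 1 TPM in both libraries. Cyp2f2 (8.63 TPM in replicate 1 and 1.67 TPM in replicate 2) and Ltf (4.93 and 1.13 TPM) were over 2-fold higher in replicate 1. The airway list did not move in a single direction, with 5 genes above and 5 below a log2 ratio of 0: Scgb1a1, a secretory cell gene, had 101 counts in replicate 1 and 106 in replicate 2, and Scgb3a2, under the minimum of 50, had 21 and 78. The parathyroid list had 2 of 4 genes detected and summed to 75.9 TPM in replicate 1 and 39.4 TPM in replicate 2. Nearly all of it was Pth, the hormone gene, at 54.9 TPM and 28.2 TPM, and Chga, at 20.75 TPM and 10.98 TPM. Of the other members, Gcm2 had 4 counts in each library, and Casr had 32 in replicate 1 and 28 in replicate 2. Which cells the reads of Bpifa1, Reg3g, Pth and Chga came from was not tested. The mesothelial list had 2 of 6 genes detected and summed to 16.8 TPM and 11.5 TPM, and Upk1b, at 5.62 TPM in replicate 1 and 1.45 TPM in replicate 2, was over 2-fold higher in replicate 1. Its other members were on both sides, 3 of the 6 genes being above and 3 below a log2 ratio of 0, with Lrrn4 at 47 counts in replicate 1 and 77 in replicate 2.

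Squamous and hair epithelium, thyroid and skeletal muscle were measured in the same way. Of 16 genes of cornified and squamous epithelium 8 were detected, and the sum was 372 TPM in replicate 1 and 409 TPM in replicate 2, of which Ly6d alone had 280.0 TPM and 326 TPM. Without Ly6d the 15 others summed to 91.5 TPM in replicate 1 and 82.2 TPM in replicate 2. Of the 16 genes 13 were higher in replicate 1 by scaled counts and 2 were lower, and the 13 included genes with few counts. The 8 at 50 counts or more had a median log2 ratio of 0.21, beside -0.02 for all genes at this minimum. None of these 8 was over 2-fold. Members below 50 counts included Sprr3, a small proline-rich protein of oesophageal and oral epithelium, with 37 counts in replicate 1 and 2 in replicate 2, Calml3 with 35 and 12, and Tgm3 with 9 and 1, whereas Flg, the filaggrin of cornified skin, had 0 in both. The rest below 50 counts were Lor with 32 and 13, Sprr1b with 20 and 13, and Ivl with 11 and 7. Crnn, also below it, was level at 11 and 11, a log2 ratio of 0.06. The thyroid list had 1 of 5 genes detected, with sums of 3.54 TPM and 3.74 TPM, and its gene Slc5a5 was over 2-fold higher in replicate 2. The hair follicle list had 1 of 7 detected (8.63 and 9.20 TPM) and the skeletal muscle list 4 of 6 (61.4 and 74.3 TPM). The part of any of these tissues in the difference of Krt4, Krt13, Krt15 and Krt6a was not tested.

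Thymic epithelial markers were set beside the same keratins. The cortical list, 8 of 8 detected, summed to 2082 TPM in replicate 1 and 2427 TPM in replicate 2, and the medullary list, 9 of 9 detected, to 439 TPM and 479.9 TPM, and neither had a gene over 2-fold. Foxn1, the transcription factor of thymic epithelium, had 18.4 TPM in replicate 1 against 27.4 TPM in replicate 2, and Psmb11, the thymoproteasome subunit of the cortex, had 67.7 TPM and 97.1 TPM. Much of the difference in the cortical sum was Tbata, with 554 TPM in replicate 1 and 828 TPM in replicate 2. All 8 cortical genes had log2 ratios below 0, but those of Ccl25 and Ly75 were only -0.005 and -0.003. All 10 pan-epithelial genes were detected, with sums of 169 TPM and 170.2 TPM. The thymic tuft cell list had 2 of 6 detected, with 4.71 TPM and 5.13 TPM. The lists' median log2 ratios, over members at 50 counts or more, were -0.16 for cortical, -0.13 for medullary and 0.05 for pan-epithelial genes, beside -0.02 for all genes.

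The structures that anchor keratin filaments were expressed as well. Of 12 genes of desmosomes and their plakins 9 were detected, with sums of 266 TPM in replicate 1 and 261 TPM in replicate 2. Perp, a desmosomal membrane protein, had 87.9 TPM and 86.9 TPM, Jup, the plakoglobin that links desmosomal cadherins to the plaque, had 78.0 TPM and 77.8 TPM, and Dsp, the desmoplakin that binds keratins, had 15.8 TPM and 12.9 TPM. Dsg3, a desmosomal cadherin of stratified epithelium, stood at 0.200 TPM and 0.130 TPM. Of 8 hemidesmosome and basement membrane genes 7 were detected, with sums of 119 TPM in replicate 1 and 101 TPM in replicate 2. Plec, the plectin that ties filaments to the hemidesmosome, was at 35.4 TPM and 24.0 TPM and the integrin gene Itga6 at 31.1 TPM and 29.3 TPM, while Col17a1 was under 1 TPM, at 0.680 and 0.590 TPM. None of the genes in either list was over 2-fold.

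The keratins, with 2804 TPM in replicate 1 and 2726 TPM in replicate 2, outweighed the 15 other intermediate filament genes that were measured, which summed to 380.1 TPM and 363 TPM. Of these 15, 10 were detected. Vim, the vimentin of mesenchymal and blood cells, had 191 TPM and 196 TPM, and Lmnb1, a nuclear lamin, had 99.8 TPM and 79.9 TPM. Krt8 and Krt18 were thus each above vimentin in TPM in both libraries.

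Sequence upstream of RefSeq starts was examined last. RefSeq promoter windows on GRCm38.p6 were available for 36 of the 53 keratins, 37 windows in all, and the last 120 bases before the start were searched on both strands. TATAAA was in 15 of the 37 windows (40.5%) and in 6.34% of all 32851 windows. ATAAAAG, a motif chosen after windows had been seen, was in 12 (32.4%) and in 2.58% of all. Either of them, which can overlap, was in 22 of the 37 (59.5%), against 7.81% of all windows. Among the more abundant keratins, the windows of Krt8, Krt18 and Krt14 held neither, and those of Krt5 and Krt7 held ATAAAAG, at base -29 in Krt5 and -7 in Krt7. The RefSeq start can differ from the GENCODE 5′ end, however. The searched bases of Krt8, Krt14 and Krt7 lay inside the annotated gene, and those of Krt18 partly so. For Krt8, Krt14 and Krt7 they therefore do not show the sequence before the GENCODE 5′ end. Krt17, Krt4, Krt15 and Krt19 had no window. GGGCGG went the other way, in 2 of the 37 keratin windows (5.41%) and in 26.5% of all, while TGANTCA was in 1 (2.70%) and in 3.41% of all.

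The windows of a basal, a cornifying and a mucosal keratin are shown because they hold such a motif in capitals and because Krt5 and Krt10 were at like levels in both pups whereas Krt13 differed over 2-fold. Each is on the minus strand and ends just before the RefSeq start, at chr15:101712906-101713025 for Krt5, chr11:99389365-99389484 for Krt10 and chr11:100121567-100121686 for Krt13. The motif begins at base -29 in Krt5, -26 in Krt10 and -29 in Krt13.
Krt5: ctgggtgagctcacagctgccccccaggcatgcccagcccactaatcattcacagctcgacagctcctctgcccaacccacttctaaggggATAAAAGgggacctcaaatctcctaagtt
Krt10: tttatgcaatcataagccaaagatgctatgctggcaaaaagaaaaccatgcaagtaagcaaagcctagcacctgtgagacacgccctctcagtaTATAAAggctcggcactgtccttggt
Krt13: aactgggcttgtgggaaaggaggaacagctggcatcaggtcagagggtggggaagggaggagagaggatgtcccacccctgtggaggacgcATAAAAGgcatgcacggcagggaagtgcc
Krt13 has a further RefSeq window, which held neither TATAAA nor ATAAAAG. A match describes the letters in the window and was not related to expression here.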

How the data were processed

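Total RNA of newborn thymus was measured in 2 libraries, 1 per pup, as 1 group. Per the labels, the assembly is mm10, and the read-me texts deposited by the authors name M4 as annotation. Which aligner and quantifier were used, and whether strand was, is not given in the sources used here. The authors deposited expected counts (not normalized, not always whole), TPM and FPKM per gene and per transcript, and each transcript's percent of its gene's TPM. The TPM of 5 keratins in each library lay outside the TPM intervals deposited by the authors, whose level is not stated. In both libraries these included the most abundant members, Krt18, Krt8 and Krt17, each above its interval. Krt18 in replicate 1, for example, had 1084 TPM and an interval of 1054 to 1074 TPM. The rest had 0 counts in the library concerned. Rows without a gene name were left out of gene totals: spike-ins held 0.00169% of counts in replicate 1 and 0.00103% in replicate 2, and other rows 0.000105% and 0.0000404%.

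Symbols and coordinates came from GENCODE M21. The keratins, the marker lists and the pairs were chosen with earlier results of these data known. Any keratin could be named; those at 1 TPM in either library or over 2-fold were given with values, and other genes only from the lists. Krt86 was left out of the hair follicle list because it is a keratin, and Cldn3 and Cldn4 are in both the medullary and the pan-epithelial lists. Detection meant at least 1 TPM in both libraries. Ratios used TMM-scaled expected counts with a prior count of 0.5, edgeR 4.0.16 in R 4.3.3, and were tested on simulated data; DESeq2 1.42.0 gave alternative size factors, and spike-ins, TPM with a pseudocount of 1, other thresholds and single libraries were tried. Tables were handled in Python 3.11.15 with pandas 2.3.3, numpy 2.4.6 and scipy 1.17.1. The reads of overlapping antisense genes cannot be told apart without strand: Gm11940, which overlaps Krt10, had 7 counts in replicate 1 and 9 in replicate 2. Pups of 1 litter give a spread that holds biological and technical parts together.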

Additional observations from a re-analysis of the deposited data

How the results depend on the processing

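The number of detected keratins followed the threshold: 41 at 0.1 TPM, 8 at 5 TPM and 39 at 10 expected counts, beside 15 as reported and 15 to 18 with either library alone. The family's share of TPM was 0.333% over protein-coding genes only and 0.323% of expected counts, beside 0.276%, and 0.273% to 0.280% in single libraries. The type II over type I ratio was 5.02 by chromosome, 1.01 on expected counts, 0.423 without Krt8 and Krt18 and, both chosen after seeing the data, 0.997 without Krt17 and 2.15 without all 3, with 0.750 to 0.778 in single libraries. Pair ratios on expected counts were 1.19 for Krt8 over Krt18, 4.29 for Krt5 over Krt14, 3.45 for Krt4 over Krt13, 12.9 for Krt7 over Krt19 and 0.00288 for Krt6b over Krt17, while single libraries gave 0.884 to 0.928, 2.43 to 2.69, 1.71 to 2.39, 4.56 to 7.83 and 0.00183 to 0.00211. Krt1 over Krt10 ranged from 0.0327 to 0.0427 in TPM of single libraries and was 0.0441 on expected counts, and Krt6a over Krt16 ranged from 1.29 to 3.13 and was 3.25. Counts weigh long transcripts more than TPM does. The number over 2-fold was 2 at a minimum of 500 counts, Krt4 and Krt15, and 3 on TPM or with Krt6a and Krt6b summed (added after seeing the data). Spike-in scaling, from 659 spike-in counts in replicate 1 and 427 in replicate 2, gave all genes a median log2 ratio of -0.71, beside -0.02: Krt4, Krt15 and Krt13 were still over 2-fold higher in replicate 1, Krt6a was at 0.43, and Krt222, 1 of 18 keratins, passed 2-fold higher in replicate 2, as did 6.90% of all genes (0.212% passed higher in replicate 1). No paired analysis was possible because there is only 1 group.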
